A study of Sus scrofa and Rattus norvegicus with 8 samples.

Results

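The 7 genes of complex I that the mitochondrial genome encodes, ND1, ND2, ND3, ND4L, ND4, ND5 and ND6, were examined in white adipose tissue of the pig. They are defined by gene symbol, a rule that uses no measured value, and all 7 were found among the 25880 gene IDs of the pig table. The tissue was the upper layer of backfat of 2-year-old female Bama pigs, profiled by RNA-seq in 6 libraries after ribosomal RNA depletion. The 6 libraries form 1 group with no treatment or genotype contrast. Another 2 libraries of the series, pools of inguinal fat from 32-week-old female SD rat, are not used here because their gene IDs were not paired with symbols. The methods describe such backfat from 6 pigs, but the labels number the libraries as replicates without tying each to an animal, so any SD or p-value given here measures only the spread between these libraries.

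Complex I (NADH:ubiquinone oxidoreductase) is the entry point of electrons from NADH into the respiratory chain, and it couples their transfer to ubiquinone to the pumping of protons across the inner mitochondrial membrane. The ND proteins are the hydrophobic core of its membrane arm, whereas the flavin- and iron-sulfur-containing arm and many accessory subunits are encoded in the nucleus. Mammalian mitochondrial DNA is transcribed from both strands into long precursors, which are cut at the tRNAs that lie between most genes. All mitochondrially encoded proteins other than ND6 derive from heavy-strand transcription, and ND6 is the sole protein gene transcribed from the light strand.

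The gene layout was read from the RefSeq annotation of Sscrofa11.1, the pig build named in the submitters' processing notes, in which the mitochondrial genome (MT) has 16613 bases. Each of the 7 genes had 1 exon. ND1 lies at MT:3922-4876, ND2 at MT:5087-6128, ND3 at MT:10653-10998, ND4L at MT:11069-11365, ND4 at MT:11359-12736 and ND5 at MT:12935-14755, all on the RefSeq plus strand. ND6 lies at MT:14739-15266 on the minus strand. Both ends of ND1, ND2 and ND3 adjoin a tRNA gene. ND4L is followed directly by ND4, and the 3′ ends of ND5 and ND6 face each other.

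The first 30 coding bases of each gene, in its own sense, are shown because the members differ in their start codons. Capitals mark the start codon.
ND1: ATGttcataattaatattctaagcctaatt
ND2: ATTaatcccattatctacactacccttatc
ND3: ATAaatattatactaacactactcacaaac
ND4L: GTGccattagtatatataaacatcattata
ND4: ATGctaaaaattattatcccaacaacaata
ND5: ATAaacccattcgcctcactcacattaacc
ND6: ATGacaatgtatattgcatttattttaagt

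Over the whole coding length, A was the most and G the least frequent base in each of the 6 heavy-strand genes, whereas in ND6 T was the most and C the least frequent. G made up 27.1% of ND6, against 9.60% in ND2, the lowest, and 12.8% in ND1, the highest of the other 6. C made up 7.20% of ND6, against 24.9% in ND4L to 29.8% in ND4. Of the 7 genes, ND1, ND2, ND3 and ND4 encode only the T of their stop codon, and the rest is supplied by the A residues added to the mRNA.

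In 2 places the members overlap, and these stretches are shown because their bases belong to both genes. Each is written on the RefSeq plus strand with the shared bases in capitals, for ND4L and ND4 within chrMT:11348-11376 and for ND5 and ND6 within chrMT:14733-14761.
ND4L and ND4: aaccttttacaATGCTAAaaattattatc
ND5 and ND6: cactatTTAATTACCACGAGTAAtctcta

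ND4L and ND4 shared 7 bases on the same strand, which held the start codon of ND4 and the stop codon of ND4L, and which were 2.36% of the length of ND4L. ND5 and ND6 shared 17 bases on opposite strands, 3.22% of the length of ND6. The libraries were stranded, but the sources used here do not say whether the quantification used strand. If it did not, reads of ND6 and reads of the opposite strand could not be told apart. This would hold along the whole of ND6 and not only in the shared bases, and it bears on every ND6 value given here.

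The values are TPM, transcript abundance corrected for length and scaled to a total of 1000000 per library over all genes of the table. Libraries of replicates 4 and 5 stood apart in composition. Named nuclear genes held 3.34% and 4.73% of their TPM, against 24.1 to 26.3% in the other 4 libraries, and gene IDs without a symbol held 96.5% and 95.0%, against 54.7 to 62.9%. Means are therefore given with and without these libraries, and ratios within a library, which no scaling of that library changes, are given beside the levels. Adipocyte markers were present throughout. ADIPOQ, which encodes adiponectin, ranged from 81.4 to 936 TPM, and FABP4, the adipocyte fatty acid binding protein, from 668 to 6285 TPM. The 8 adipocyte markers summed to 19715 to 36515 when each library was rescaled to 1000000 over its named nuclear genes (rescaled TPM), and FABP4 made up most of this sum, with 10370 to 28926. The lipid droplet and lipolysis genes among them did not share a direction. PLIN1 had 1351 and 1247 rescaled TPM in replicates 4 and 5 and at least 1506 in the others. LIPE had 577 and 423 against at least 1046, and PNPLA2 had 163 and 129.7 against at least 419.6. CIDEC, of the lipid droplet, went the other way, with 892 and 856 against at most 647. The 4 skeletal muscle markers with a value (ACTA1, CKM, TNNC2 and TNNT3) summed to 1.75 to 12.8 rescaled TPM. On that scale the 5 macrophage markers summed to 204 to 571, the 3 endothelial markers to 556 to 1214, the 5 lymphoid markers to 15.4 to 36.1, the 2 epithelial markers to 2.04 to 4.96, and HBB and ALAS2 of erythroid cells to 105 to 964. Macrophage, endothelial and lymphoid sums were lowest in replicates 4 and 5, and the erythroid sum was highest in replicate 4. The part of these cells in the levels below was not tested. In bulk tissue, fewer cells of a type and less RNA per cell cannot be told apart.

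All 7 genes were transcribed in every library, and in replicates 1, 2, 3 and 6 all but ND6 were among the 20 most abundant genes of the table. The levels of the 7 genes followed a common split, with replicates 4 and 5 far below the others for each gene. The members are given in turn by their place in the membrane arm.

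ND1 sits where the membrane arm meets the arm that carries electrons, beside the ubiquinone site. It had 5472 TPM in replicate 1, 7479.8 in replicate 2, 10061 in replicate 3, 15.7 in replicate 4, 17.2 in replicate 5 and 4775 in replicate 6. Replicates 4 and 5 were thus at least 278-fold below the lowest of the other libraries. The mean of ND1 was 4637 ± 4023 TPM (SD, n = 6), and 6947 ± 2372 TPM without replicates 4 and 5 (SD, n = 4).

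ND2, ND4 and ND5 are the antiporter-like subunits that form the proton channels. ND2 had 6191, 8916, 9859.8, 37.4, 39.1 and 5103 TPM in replicates 1 to 6, with a mean of 5024 ± 4234 (SD, n = 6). ND4 had 9199, 15279, 10544, 13.8, 15.0 and 5913 TPM, with a mean of 6827 ± 6075 (SD, n = 6). ND5, at the far end of the arm, had 5937, 7085, 8482, 14.1, 16.1 and 4389 TPM, with a mean of 4320.5 ± 3596 (SD, n = 6). The libraries of replicates 4 and 5 were the lowest for all 3 genes, and of the 7 members ND4 had the widest gap, since the lowest of the other libraries was 393-fold above the higher of the pair. For ND5 this gap was 272-fold and for ND2 it was 130.4-fold. In the other 4 libraries the means were 7517 ± 2239 TPM for ND2, 10234 ± 3886 TPM for ND4 and 6473 ± 1736 TPM for ND5 (SD, n = 4).

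ND3, ND4L and ND6 are small subunits of the same arm, in the stretch between ND1 and the antiporter-like subunits. ND3 had 8271, 10828, 11669, 86.8, 148 and 6645 TPM in replicates 1 to 6, with a mean of 6275 ± 5095 (SD, n = 6). ND4L had 17681, 20465, 24269.6, 284, 266 and 12573 TPM, with a mean of 12589.5 ± 10273 (SD, n = 6). By TPM, which correct for length, ND4L was the most abundant of the 7 in every library, and it is the shortest. The order depended on that correction. With TPM multiplied by coding length, shares of the sum over all mitochondrially encoded protein genes were compared. In replicates 1, 2, 3 and 6 ND4L then held 3.45 to 4.77%, below ND4 with 8.72 to 11.9%. In replicates 4 and 5 ND4L stayed above ND4. ND6 had 392, 487, 819, 16.7, 25.4 and 547 TPM, with a mean of 381 ± 313 (SD, n = 6). Replicates 4 and 5 were again lowest for each, but the gaps were narrower than for ND1, ND2, ND4 and ND5, at 44.8-fold for ND3, 44.2-fold for ND4L and 15.5-fold for ND6. In the other 4 libraries the means were 9353 ± 2313 TPM for ND3, 18747 ± 4923 TPM for ND4L and 561 ± 183 TPM for ND6 (SD, n = 4).

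**Figure D1:**
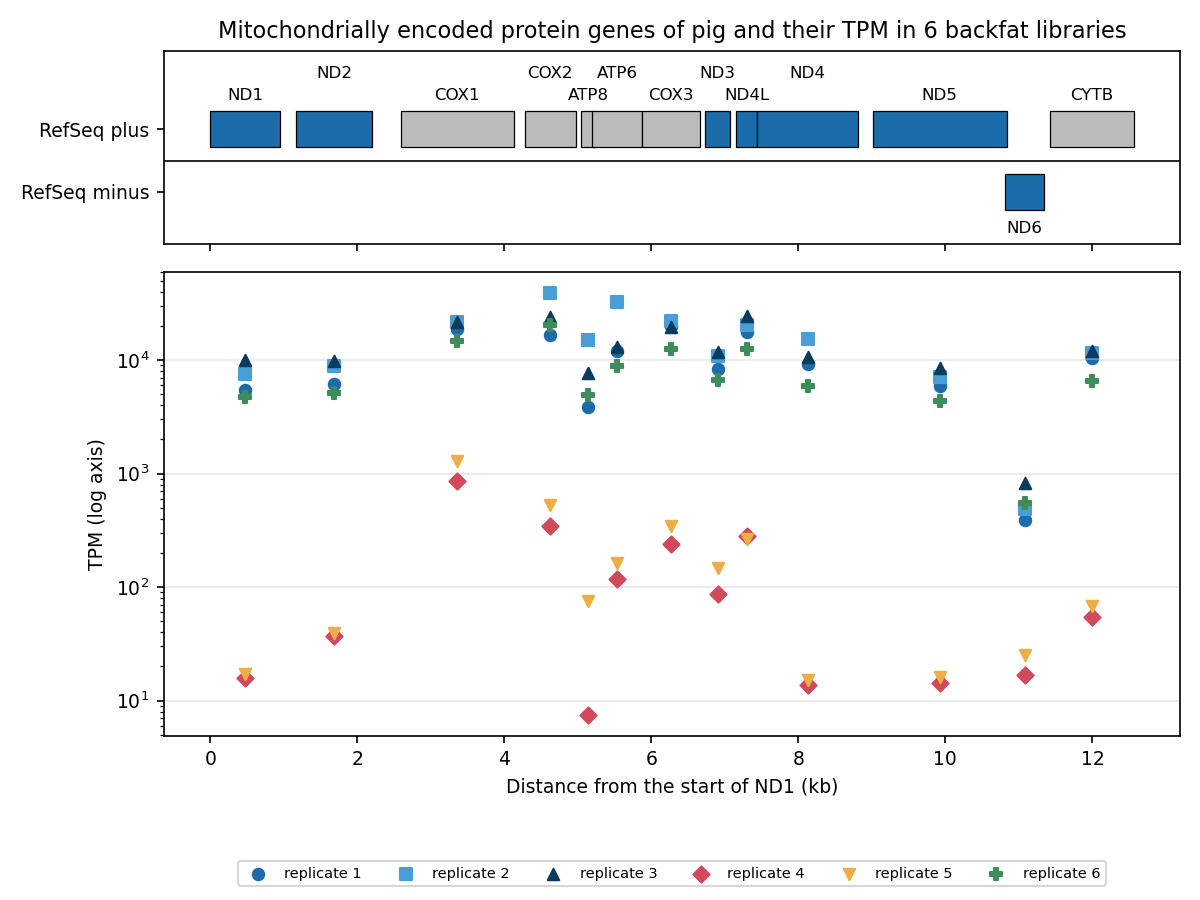
The upper panel maps the 13 mitochondrially encoded protein genes to scale by distance from the start of ND1 in kb, with ND genes in blue, the other 6 in grey and ND6 alone on the minus strand; the lower panel plots the TPM of each gene in each library on a log axis, 1 symbol per library. Replicates 4 and 5 lie below the other 4 libraries for every gene, from 11.6-fold for COX1 to 393-fold for ND4.

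Lower TPM in replicates 4 and 5 was the rule in the whole table, so the direction alone does not set the ND genes apart. Of 12920 gene IDs that averaged 1 TPM or more, 96.5% were lower in both than in each of the other 4 libraries. After rescaling over named nuclear genes, replicates 4 and 5 were still below the other 4 for all 7 ND genes, where 50.1% of 10189 named nuclear genes were. The distance was 54.3-fold for ND4, 39.3-fold for ND5, 38.5-fold for ND1, 17.3-fold for ND2, 8.04-fold for ND3, 5.61-fold for ND4L and 2.93-fold for ND6. The median of this ratio over the 10189 named nuclear genes was 1.00, and 5.58% of them reached the ratio of ND6. No test was made, because the pair was singled out by its composition and not by the labels.

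The share of the 7 genes in the TPM of all 13 mitochondrially encoded protein genes was then examined, a ratio within a library. Complex I held 32.2% ± 10.1 (SD, n = 6). Its share was 39.3% in replicate 1, 33.2% in replicate 2, 43.6% in replicate 3, 22.4% in replicate 4, 17.7% in replicate 5 and 37.1% in replicate 6. Replicates 4 and 5 were the lowest, and without them the mean was 38.3% ± 4.32 (SD, n = 4). Complex IV, the cytochrome c oxidase of COX1, COX2 and COX3, held 68.9% and 72.0% in replicates 4 and 5 and 37.5 to 44.0% in the others. Most of that difference lay in COX1, at 40.8% and 43.0% against 10.1 to 14.0%. Complex III, by CYTB, held 2.61% and 2.27% in replicates 4 and 5 and 5.47 to 7.71% in the others. Complex V, by ATP6 and ATP8, held 6.04% and 8.03% there and 11.7 to 22.3% in the others. Replicates 4 and 5 were thus the lowest for complexes III and V as well, so a low share there was not particular to complex I. In the whole table the 7 ND genes held 3.99 to 7.57% of all TPM in replicates 1, 2, 3 and 6, but 0.0469% in replicate 4 and 0.0527% in replicate 5.

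**Figure D2:**
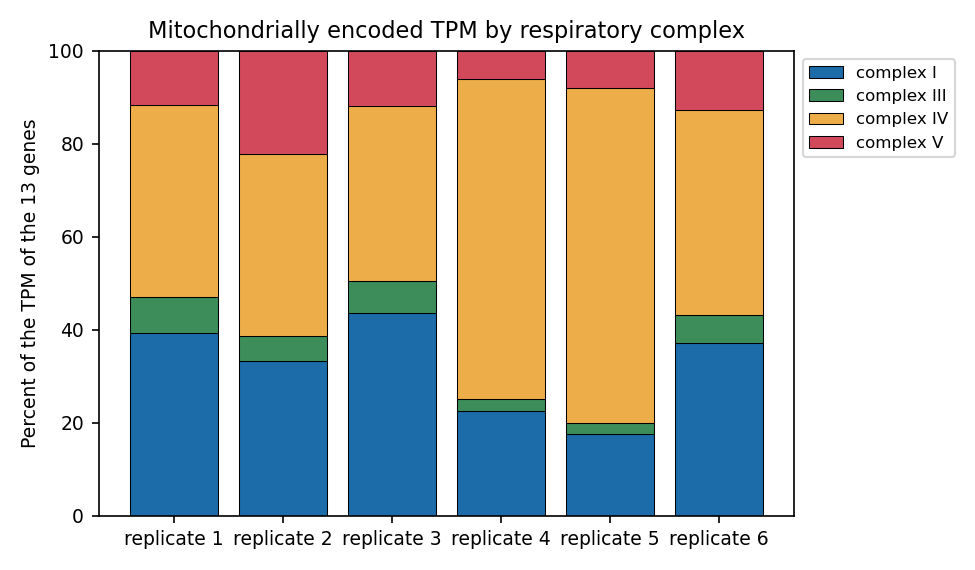
Each bar is 1 library and shows how the TPM of the 13 mitochondrially encoded protein genes divide among the respiratory complexes, in percent. Complex I runs from 17.7% in replicate 5 to 43.6% in replicate 3, and complex IV is largest in replicates 4 and 5.

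The members did not keep their shares in step. The share of ND4 was 6.81%, 7.20%, 6.07%, 0.660%, 0.504% and 5.49% in replicates 1 to 6. That of ND5 was 4.39%, 3.34%, 4.88%, 0.677%, 0.540% and 4.07%, and that of ND1 was 4.05%, 3.52%, 5.79%, 0.752%, 0.575% and 4.43%. For these genes replicates 4 and 5 lay 8.32-fold, 4.93-fold and 4.68-fold below the lowest of the others. ND2 had 1.79% and 1.31% in replicates 4 and 5 and 4.20 to 5.67% in the others. ND3 had 4.15% and 4.97% there and 5.10 to 6.72% in the others, close to touching. ND4L overlapped, at 13.6% and 8.90% there and 9.64 to 14.0% in the others. ND6 was the 1 member with the opposite order, at 0.797% and 0.850% in replicates 4 and 5 and 0.229 to 0.507% in the others. Among the ND genes alone, ND4L made up 60.6% and 50.4% of the ND TPM in replicates 4 and 5, and 29.0 to 33.3% in the other libraries.

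**Figure D3:**
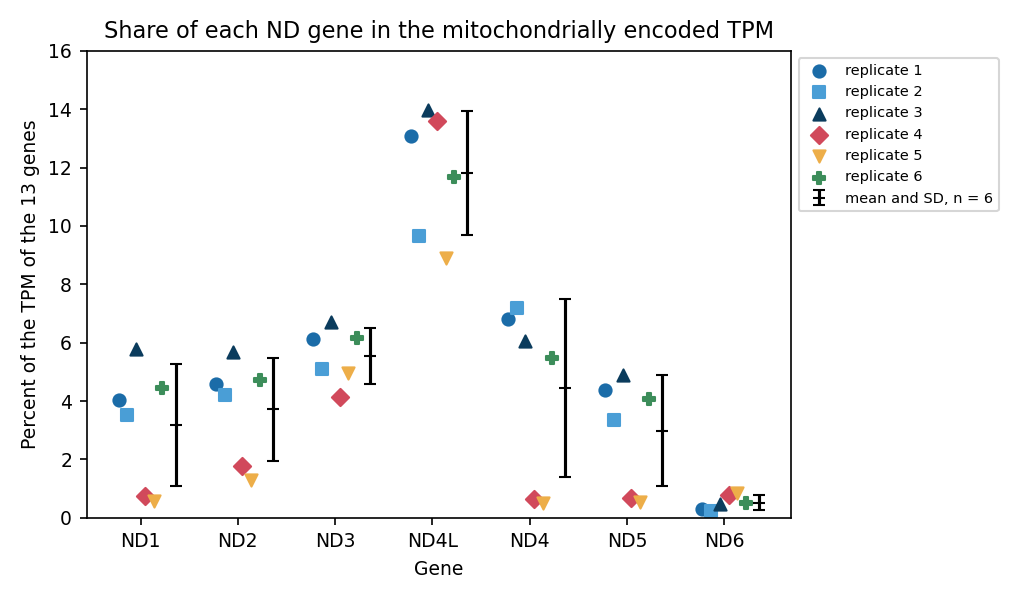
Points give the share of each ND gene in the TPM of the 13 mitochondrially encoded protein genes, in percent, with 1 symbol per library, and the black bar gives the mean and SD (n = 6). ND1, ND2, ND4 and ND5 fall into a high set and the pair of replicates 4 and 5, ND3 and ND4L do so little or not at all, and ND6 is highest in that pair.

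ND6, the light-strand gene, was compared with the heavy-strand ND genes in each library. ND6 was at 5.42% of the median heavy-strand ND gene in replicate 1, 4.93% in replicate 2, 7.95% in replicate 3, 62.7% in replicate 4, 90.1% in replicate 5 and 9.93% in replicate 6. It lay below the median in 6 of 6 libraries, but by a small margin in replicates 4 and 5. The mean log2 ratio of ND6 to that median was -2.73 ± 1.84 (SD, n = 6), with p = 0.03125 in a two-sided exact permutation test over the signs of the 6 libraries, the smallest p that 6 libraries allow. Without replicates 4 and 5 the mean was -3.88 ± 0.473 (SD, n = 4) and the exact p was 0.125, again the smallest that 4 libraries allow. The mean of all 6 thus combines libraries that differ by more than the spread within either set.

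Against single genes the picture in replicates 4 and 5 was mixed. ND6 was below all 6 heavy-strand ND genes in replicates 1, 2, 3 and 6. In replicates 4 and 5 it was above 3 of them, ND1, ND4 and ND5, with log2 ratios of 0.08, 0.27 and 0.24 in replicate 4 and 0.56, 0.75 and 0.65 in replicate 5. It stayed below ND4L in every library, with log2 ratios of -5.49, -5.39, -4.89, -4.09, -3.39 and -4.52 in replicates 1 to 6. Against ND3 the log2 ratio ran from -4.48 to -2.38, and against ND2 from -4.20 to -0.63. Among the 13 genes COX1 kept the steadiest ratio with ND6, a log2 ratio of -5.32 ± 0.445 (SD, n = 6). That place rested on replicates 4 and 5, since without them the SD was 0.453 for COX1 and lower for ND1 (0.356), ND3 (0.427), ND2 (0.431) and ND5 (0.434).

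**Figure D4:**
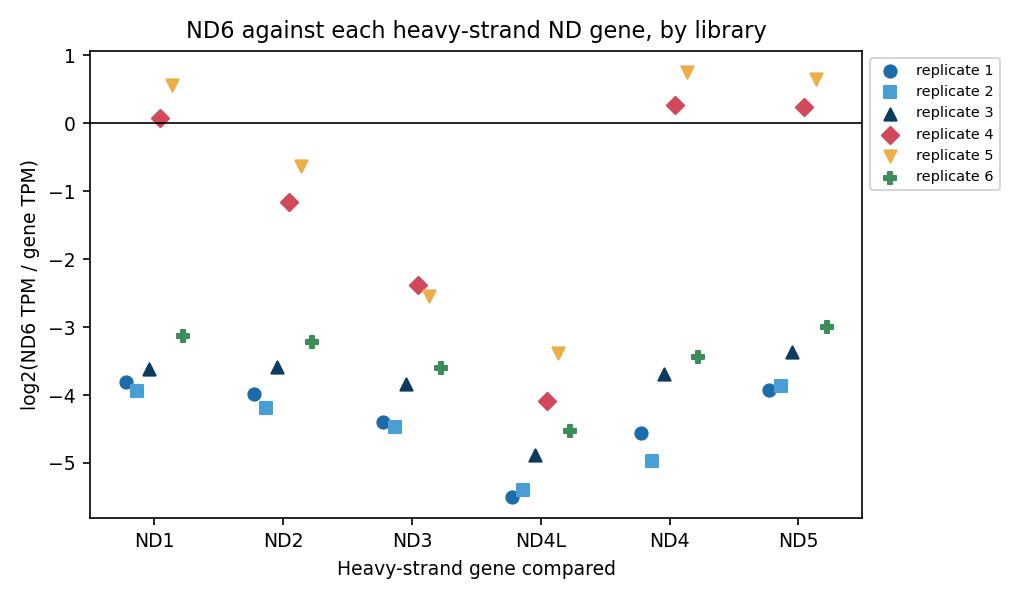
Each point is the log2 ratio of ND6 TPM to the TPM of a heavy-strand ND gene in 1 library, and the line at 0 marks equal TPM. In replicates 1, 2, 3 and 6 the highest ratio is -3.01, whereas replicates 4 and 5 lie above 0 for ND1, ND4 and ND5.

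By mean share in the TPM of the 13 genes the order was ND4L (11.8%), ND3 (5.54%), ND4 (4.45%), ND2 (3.71%), ND1 (3.19%), ND5 (2.98%) and ND6 (0.524%). Neighbours were compared by their log2 ratio within each library. ND4L exceeded ND3 in 6 of 6 libraries, by 1.09 ± 0.318 (SD). The steps from ND3 to ND4, from ND4 to ND2, from ND2 to ND1 and from ND1 to ND5 were smaller than their SD. For ND4 and ND2 the mean ratio even reversed the order by share. ND4 exceeded ND2 in 4 of 6 libraries, but its mean log2 ratio to ND2 was -0.19 ± 0.973 (SD). ND5 exceeded ND6 in 4 of 6 libraries, by 2.21 ± 2.09 (SD). Without replicates 4 and 5, an order taken after the data were seen, ND4, with 6.39%, stood above ND3, with 6.03%, and the order was otherwise as before. There ND4 and ND3 differed by 0.08 ± 0.312 (SD) and ND1 and ND5 by 0.08 ± 0.151 (SD), both within the spread. ND3 exceeded ND2 in 4 of 4 libraries by 0.33 ± 0.0824 (SD), ND2 exceeded ND1 in 3 of 4 by 0.12 ± 0.121 (SD), just beyond the spread, and ND5 exceeded ND6 in 4 of 4 libraries by 3.54 ± 0.434 (SD).

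How closely genes moved together was described by the SD of their log2 ratio over libraries, where a small SD means a steady ratio. ND1 and ND5, which lie apart on the genome, kept the steadiest ratio of any pair of members, with an SD of 0.120 over 6 libraries. ND3 and ND4L followed at 0.318. ND4 and ND6 had the least steady ratio, 2.48. Without replicates 4 and 5 the steadiest pair was ND4L and ND5, at 0.0270, and the pairs of heavy-strand ND genes lay between that value and 0.433, so the differences between ND4L and ND5 rested on replicates 4 and 5, where the SD over 6 libraries was 1.37. All points share the same 6 libraries, and no test was made.

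The same measure was taken against 3706 named genes that were above 0 in every library and averaged 10 TPM or more. The 3 nearest to ND1 were ND5 (0.120), ND4 (0.504) and ND2 (0.573). For ND5 they were ND1, ND4 (0.448) and ND2 (0.594), and for ND4 they were ND5, ND1 and ND2 (0.973). For ND2 they were CYTB (0.214), ATN1 (0.421) and BGN (0.556), the latter the matrix proteoglycan biglycan. For ND3 they were BCL9L (0.212), COX3 (0.266) and SH3BGRL3 (0.284), and for ND4L they were COX3 (0.264), ND3 (0.318) and BCL9L (0.318). The 3 nearest to ND6 were all nuclear, LARP1 (0.175), EFNA5 (0.180) and SEPTIN9 (0.181). LARP1 is an RNA-binding regulator of translation, EFNA5 an ephrin ligand and SEPTIN9 a cytoskeletal GTPase. Without replicates 4 and 5, none of these 3 was among the 3 nearest to ND6, which were ELK3 (0.0893), TRARG1 (0.0908) and ARHGAP29 (0.0978). Without those libraries the nearest gene was ACSL1 for ND1 (0.0766), CLU for ND3 (0.0590), ND5 for ND4L and ND4L for ND5 (0.0270), and GASK1B for ND4 (0.0716).

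Coding length was set beside these patterns. The 7 genes span 297 bases in ND4L, 346 in ND3, 528 in ND6, 955 in ND1, 1042 in ND2, 1378 in ND4 and 1821 in ND5. The 4 longest were those with the widest gap between replicates 4 and 5 and the other libraries, and across the 7 genes Spearman's rho of length with that fold was 0.714. Across all 13 genes it was 0.363, and COX1, with 1545 bases, had the narrowest gap. Within libraries, rho of length with TPM over the 6 heavy-strand ND genes ran from -0.886 in replicates 4 and 5 to -0.429 in replicate 1. Over all 13 genes it ran from -0.297 to 0.148. These are descriptions over few genes, which are not independent replicates, and the part of length in the result was not tested.

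The ND genes were then read against the nuclear genes of the same complex. Of 37 nuclear subunits listed, 28 had a named ID in the table. Their median was 16.2, 13.1, 15.9, 3.15, 5.40 and 17.1 TPM in replicates 1 to 6. The median ND gene was 383-fold above the median nuclear subunit in replicate 1, 683-fold in replicate 2, 631-fold in replicate 3 and 298-fold in replicate 6, but 5.29-fold in replicate 4 and 4.70-fold in replicate 5. The log2 ratio was 6.69 ± 3.42 (SD, n = 6), and 8.88 ± 0.574 (SD, n = 4) without replicates 4 and 5. The median ND gene was ND6 itself in replicates 4 and 5, so these folds carry the open question of strand. It was ND1 in replicate 3 and ND2 in replicates 1, 2 and 6. Single ND genes spread widely around the fold in replicates 4 and 5. Their log2 ratios to the nuclear median ran from 2.13 for ND4 to 6.496 for ND4L in replicate 4. In replicate 5 they ran from 1.48 for ND4 to 5.62 for ND4L. In replicates 1, 2, 3 and 6 none of these 28 nuclear subunits reached the lowest ND gene. In replicates 4 and 5, 3 and 5 of the 28 did.

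**Figure D5:**
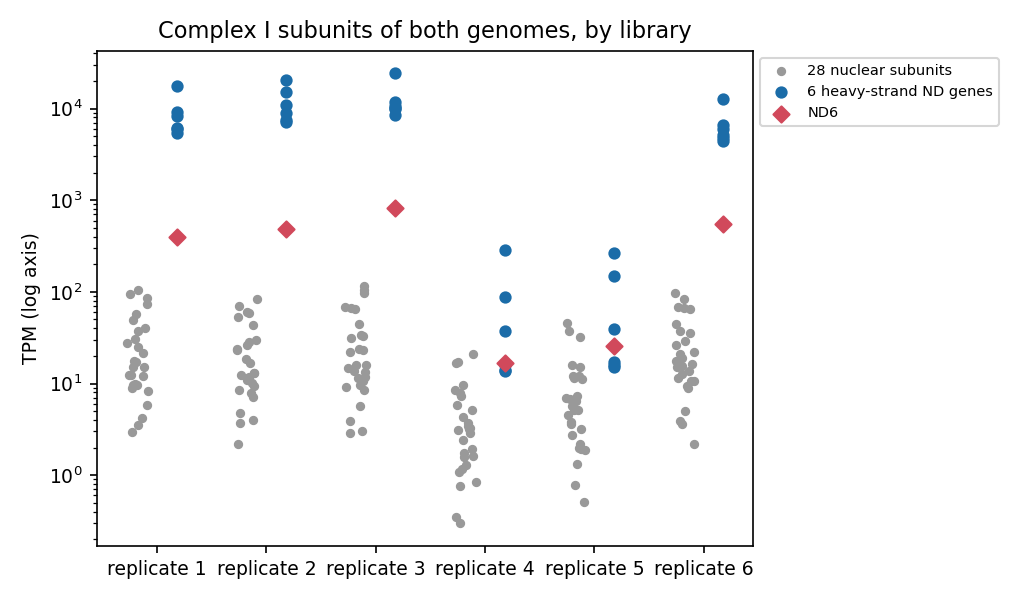
For each library the grey points are the 28 nuclear complex I subunits (spread sideways for legibility), the blue points the 6 heavy-strand ND genes and the red diamond ND6, in TPM on a log axis. The sets are separate in replicates 1, 2, 3 and 6 and overlap in replicates 4 and 5.

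Among the 28 nuclear subunits with a named ID the most abundant were NDUFS5 (71.3 ± 35.4 TPM), NDUFB9 (70.0 ± 37.7 TPM) and NDUFAB1 (57.7 ± 41.6 TPM), with SD over n = 6 for each. NDUFAB1 is also the mitochondrial acyl carrier protein. The lowest of the 28 were NDUFB11 (2.83 ± 1.88 TPM), NDUFB2 (2.78 ± 1.18 TPM) and NDUFS3 (1.88 ± 1.08 TPM). NDUFS1, which carries iron-sulfur clusters, had 10.7 ± 4.67 TPM, and NDUFV1, which binds NADH and flavin, had 3.92 ± 2.23 TPM (SD, n = 6). As deposited, 27 of 28 nuclear subunits were lower in both replicates 4 and 5 than in the other 4, beside 96.5% of all gene IDs. After rescaling, 14 of 28 were higher in both and 4 of 28 were lower in both, where 11.1% and 50.1% of the named nuclear genes were. The 7 ND genes were all lower on that scale. Without replicates 4 and 5, the means of the 28 subunits were 1.18 to 1.43 times those over all libraries, with the same 3 genes highest and the same 3 lowest (NDUFB9 92.8, NDUFS5 92.5, NDUFAB1 82.2, NDUFB11 4.04, NDUFB2 3.48 and NDUFS3 2.54 TPM).

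Of 19 assembly factors of complex I listed, 17 had a value, and those named here were chosen after their values were seen. The highest were DMAC1 (18.6 ± 9.23 TPM), NDUFAF8 (17.6 ± 15.5 TPM) and TMEM126B (12.5 ± 8.15 TPM), and the lowest were ACAD9 (1.93 ± 1.02 TPM), NDUFAF5 (1.56 ± 0.882 TPM) and NDUFAF6 (1.20 ± 0.794 TPM; SD, n = 6 for each). After rescaling, 4 of 17 were higher and 3 were lower in both replicates 4 and 5 than in the other 4 libraries, where 11.1% and 50.1% of the named nuclear genes were. The means without replicates 4 and 5 were 1.26 to 1.44 times as high, with the same 3 genes highest and the same 3 lowest.

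Genes that make, process and stabilize mitochondrial RNA were read last, and 28 of 30 listed had a value. LRPPRC and SLIRP form the complex that stabilizes heavy-strand mRNAs. LRPPRC had 16.8, 17.2, 17.1, 3.42, 4.00 and 22.6 TPM in replicates 1 to 6. SLIRP had 25.0, 27.6, 31.1, 14.5, 23.2 and 39.8 TPM. In rescaled TPM neither was lower in replicates 4 and 5. There LRPPRC had 102 and 84.5, against 65.5 to 86.0 in the others, and SLIRP had 433 and 489, against 100 to 151. GRSF1, an RNA-binding protein of mitochondrial RNA granules that binds light-strand transcripts, was the most abundant of the list at 55.8 ± 38.0 TPM (SD, n = 6). FASTK, which is needed for ND6 mRNA, had 2.47 ± 1.75 TPM. SUPV3L1 and PNPT1, which degrade mitochondrial RNA, had 2.68 ± 2.03 and 11.5 ± 7.90 TPM. POLRMT, the mitochondrial RNA polymerase, had 3.64 ± 2.64 TPM, its elongation factor TEFM had 2.50 ± 1.72 TPM, and TFAM, which packages mitochondrial DNA and starts transcription, had 10.5 ± 5.52 TPM (SD, n = 6). HSD17B10, a subunit of the mitochondrial RNase P, was the third most abundant at 15.5 ± 9.03 TPM. PRORP, its nuclease subunit, TFB1M and TWNK were the lowest, at 2.18 ± 1.45, 2.01 ± 1.41 and 1.75 ± 1.25 TPM (SD, n = 6). After rescaling, 13 of the 28 were lower in both replicates 4 and 5 than in the other 4 libraries, POLRMT, TEFM, SUPV3L1 and PNPT1 among them, where 50.1% of named nuclear genes were. TFAM, SLIRP and TRMT10C, 3 of the 28, were higher in both, where 11.1% of named nuclear genes were. Both counts lay near those shares, so they do not set the list apart from named nuclear genes. The means of the 28 without replicates 4 and 5 were 1.15 to 1.46 times as high, with the same 3 genes highest and the same 3 lowest.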

How the data were processed

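The authors deposited TPM per gene, computed with kallisto 0.43.0 from rRNA-depleted stranded libraries sequenced by Illumina. Per their methods, quantification used the annotated protein-coding genes plus assembled noncoding transcripts. Whether that set is the one behind this table, and the strand setting, are not given in the sources used here. Each of the 6 pig columns sums to 1000000 over 25880 IDs. TPM keep no read counts, so the depth is unknown and no counting error can be given. Symbols came from a name table by ID (14857 IDs, 57.4%). Symbols held by more than 1 ID were left out. The rat table was not used.

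Python 3.11.15, pandas 2.3.3 and scipy 1.17.1 were used. Log2 ratios took no pseudocount. Rescaled TPM divide each library by its sum over 14844 named nuclear IDs. The exact test flips the signs of the log2 ratios of the 6 libraries and was, like the likeness measure, tested on simulated data. Genes were named by list, by the 3 highest and 3 lowest means of a list, by role, and by likeness. Although the rule for the members uses no value, members and lists were chosen with earlier results of these data known. Annotation and sequences are those of RefSeq on Sscrofa11.1. Some values that the naming rule asks for are not reported here.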

Additional observations from a re-analysis of the deposited data

How the results depend on the processing

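The direction of ND6 below the heavy-strand ND genes held under the 3 alternatives that kept all 6 libraries, with a mean log2 ratio of -3.41 against their mean, -3.55 against the median of the 12 heavy-strand genes and -2.72 with a pseudocount of 1 TPM, each with an exact p of 0.03125. Leaving out a library gave -3.24 to -2.40 with an exact p of 0.0625, and leaving out replicates 4 and 5 gave -3.88 with an exact p of 0.125. Both are the smallest p those numbers of libraries allow, so they say nothing on stability.

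The complex I share, 32.2%, was 31.8% without ND6, 27.4% when TPM were multiplied by coding length, 29.9 to 35.1% when a library was left out, and 38.3% without replicates 4 and 5. The summed TPM of the 7 genes, 40054, was 161890 when rescaled over named nuclear genes and 322072 when rescaled over the 13 genes, since smaller sets share the same total. It was 32924 to 47971.5 when a library was left out and 59833 without replicates 4 and 5. The ratio to nuclear subunits was 6.15 to 7.58 on the log2 scale when a library was left out, and 6.60 with means in place of medians. No library stood apart in 17 sets of 6 values examined, a check that a pair of low libraries can escape. No paired analysis was possible because the pig libraries form 1 group and no 2 groups of libraries were tested against each other. The ND6 test already compares genes within each library. The read depth is unknown, so the counting error of the low values in replicates 4 and 5 cannot be given.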
